A study of Homo sapiens with 10 samples.

Results

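The 42 genes described here encode the machinery that copies DNA, together with the cyclins and transcription factors that take a cell from G1 into S phase. They form a list of gene names drawn from what is known of replication, and their symbols were matched through GENCODE release 44 to the 78894 gene IDs of the table. A filter on low values, which asked for 10 or more normalized counts in at least 3 libraries, left 29045 genes, and all 42 members passed it with no fewer than 506 normalized counts in any library. By role, 10 members license origins, 6 activate the helicase, 5 form or load the sliding clamp, 7 are polymerase or primase subunits, 2 join the lagging strand, 4 supply nucleotides, 5 are cyclins or E2F factors and 3 protect the fork, mark proteins for destruction or maintain DNA methylation.

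The RNA came from HEK293T, an established human embryonic kidney line, kept for 24 h in medium without cysteine (0X, 2 libraries), in complete medium (1X, 4 libraries) or in medium with a 10-fold excess of cysteine (10X, 4 libraries). No genetic change, drug or sorting of cells is given for any of the 3 groups, which are labelled by the cysteine of the medium. All grew in the serum-supplemented culture that the methods describe. In the paper's amino acid starvation protocol the starvation medium held dialyzed serum, so the groups may have differed by more than cysteine. The line carries viral oncoproteins that bind the RB family and p53, so its G1/S control is not that of a normal cell. The number of replicates stated with the published RNA-seq of complete and cysteine-free medium differs from the libraries the table holds for either, and the groups here follow the labels. The sample titles call the replicates biological, and the paper describes its RNA-seq replicates as independent. The titles do not say whether they came from separate cultures. The p-values below therefore measure the spread between libraries, part of which may be technical.

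A dividing cell prepares its origins in G1. The origin recognition complex, CDC6 and CDT1 place the ring of MCM2 to MCM7 on DNA, CDC45 and GINS turn that ring into a working helicase in S phase, and primase with the alpha, delta and epsilon polymerases then copies both strands, held to the template by PCNA. Many of these genes are switched on together by E2F factors, which cyclin-dependent kinases release from the RB family, and cyclins D and E are the partners of those kinases.

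Between 34836014 and 61654861 reads fell on genes per library, and a member had between 464 and 23054 reads in a library. The line's markers LIN28B, NEFM, CDH2 and VIM were expressed in every library and PAX2 was low. Of 12 markers of the liver, T cell and breast lines of the same study, 11 stayed at or below 21.0 normalized counts, among them ALB, CD3E and KRT7, and ERBB2 lay between 2657 and 3365. Transcripts of mitochondrial DNA held 5.15% to 5.71% of the reads in cysteine-free medium, 4.51% to 5.05% in complete medium and 0.117% to 0.146% in excess medium, a difference that moved with the group and whose part in the results below was not tested. The labels give no batch. Of the 42 members, 20 share exon bases with another annotated gene, and some of these partners are named below.

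The members were well expressed in complete medium. Their mean normalized count, the read count divided by the size factor of the library, ranged from 933 to 18831 with a median of 3850, against a median of 229 over the genes kept. Per kilobase of the MANE Select transcript, the highest levels were those of the clamp PCNA with 7746 ± 423 (SD, n = 4), MCM7 with 7633 ± 435 (SD, n = 4) and MCM4 with 4422 ± 136 (SD, n = 4). At the low end stood E2F2 with 279 ± 17.9, CCND1 with 329 ± 24.3 and CCNE2 with 374 ± 26.6 normalized counts per kilobase (SD, n = 4). PCNA and MCM7 differed by less than the spread of either. Among replicates the median coefficient of variation of a member was 2.38% in cysteine-free, 4.84% in complete and 3.07% in excess medium, and the highest, 16.8%, belonged to CCND1 in cysteine-free medium.

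The replication genes did not move as a block in any comparison. Against complete medium, 8 of the 42 rose in cysteine-free medium (19.0%) and 3 fell (7.14%), where a call needs a limma p, adjusted over all genes kept, of at most 0.01. Of all genes kept, 7.39% rose and 8.51% fell, and of the 11751 genes with a mean of 500 or more, a level that every member exceeded, 11.5% rose and 17.1% fell. The median log2 fold change of the members was 0.09, against 0.00 over all genes kept. With either cysteine-free library left out, where the lone one is assumed to vary like the complete libraries, the counts dropped to 3 higher (LIG1, E2F2 and DTL) and 1 lower (CCND1). The other 7 calls were lost both ways with their directions kept. In the same fits the calls over all genes kept dropped to 1.86% higher and 2.26% lower without replicate 1, and to 1.39% and 1.97% without replicate 2. With quantile normalization 16 members rose (38.1%) and 3 fell, beside 7.58% and 8.53% of all genes kept.

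In excess medium 13 members rose (31.0%) and 14 fell (33.3%) against complete medium, and the members' median log2 change was -0.02. These shares were near the background. Of all genes kept, 23.1% rose and 22.9% fell, and among genes with a mean of 500 or more 30.1% rose and 37.6% fell. With equal totals the balance turned, and 18 members rose (42.9%) and 10 fell (23.8%), beside 28.9% and 17.9% of all genes kept. Excess against cysteine-free medium gave 11 members higher (26.2%) and 16 lower (38.1%), beside 24.4% and 23.6% of all genes kept and 32.8% and 35.2% of the genes at 500 or above. With equal totals this balance turned, and 18 members were higher and 14 lower (median 0.06), beside 28.8% and 19.2% of all genes kept. The other scalings kept it. Equal nuclear totals gave 12 higher and 16 lower (median -0.02), beside 24.4% and 23.3% of all genes kept. Quantile normalization gave 13 and 16 (median -0.01), beside 25.1% and 22.4%. A share near the background says nothing of the members as a list, so the results below concern single genes and complexes. The first 2 comparisons share the complete libraries, and the third shares its libraries with both. In bulk RNA, a smaller share of cells in S phase and less RNA of a gene per cell cannot be told apart.

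**Figure D1:**
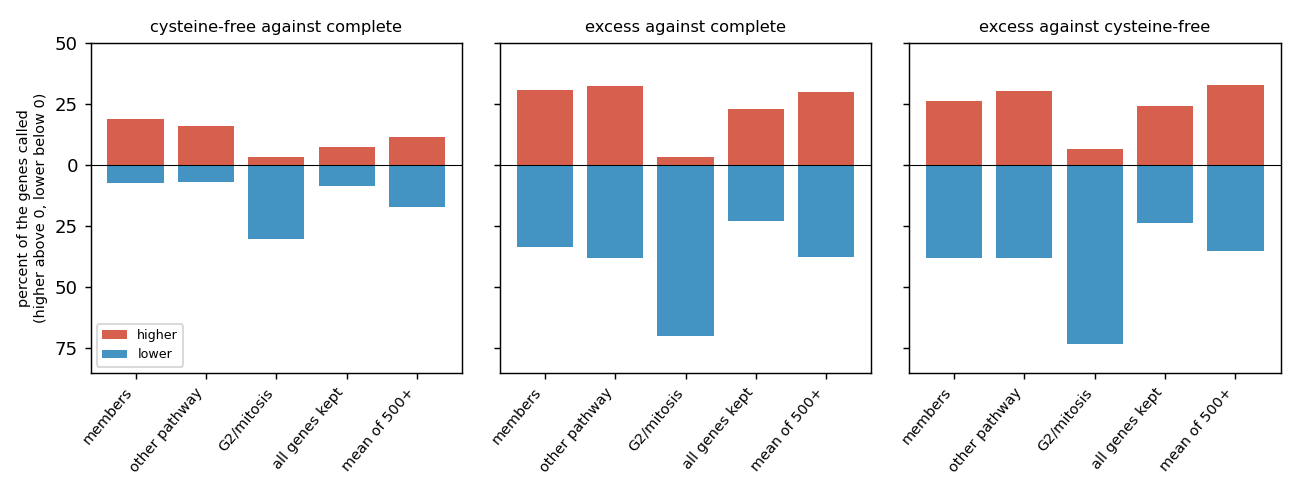
Percent of genes called higher (above 0) or lower (below 0) by limma at the adjusted threshold of 0.01, for the 42 members, 105 other pathway genes, 30 G2 and mitosis genes, all 29045 genes kept and the 11751 genes averaging at least 500 normalized counts. In the excess panels the bars of the members reach about as far as those of the well-expressed genes (mean 500 or more).

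**Figure D2:**
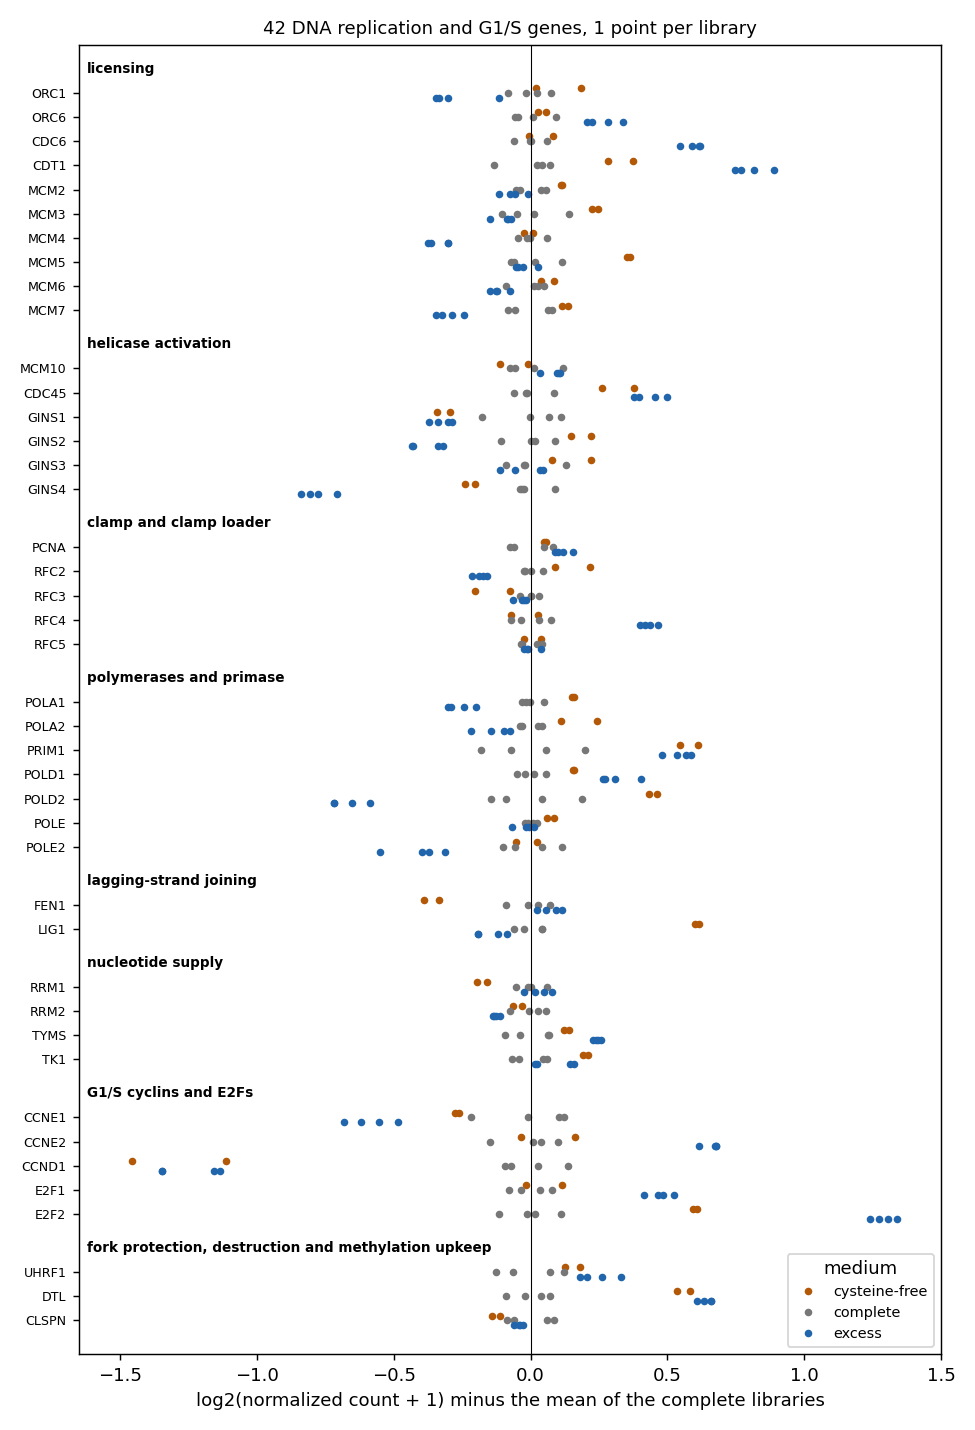
Each point is 1 library, placed by log2(normalized count + 1) minus the mean of the 4 complete libraries, with the 42 members grouped by role. Excess libraries lie to the right for CDC6, CDT1, CCNE2, E2F1, E2F2 and DTL and to the left for GINS4, POLD2, CCNE1 and CCND1, while cysteine-free libraries stand apart most for LIG1, E2F2, PRIM1, DTL and CCND1.

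The promoters of the members are shown because E2F factors are known to act through short words near the start of many replication genes, and E2F1 and E2F2 are members themselves. RefSeq promoters of GRCh38.p14, from 250 bases before to 50 after each start, were matched by symbol to 37 of the 42 members; MCM4, MCM5, CCND1, GINS4 and CCNE2 had no entry. The 4 words TTTCCCGC, TTTGGCGC, TTTCGCGC and TTTGCCGC were searched on both strands, where TTTCGCGC and its reverse complement can overlap each other and TTTGGCGC. At least 1 word stood in a promoter of 22 of the 37 members (59.5%), of 17 of 86 other pathway genes (19.8%), of 2 of 23 G2 and mitosis genes (8.70%) and of 3.99% of 27305 genes. In 19 of the 22 members the nearest word lay within 60 bases of a start, and 6 members held 2 or more. The 250 bases before the start of E2F1 (chr20:33686386-33686635, minus strand) held words 33 and 20 bases before it, and those of E2F2 (chr1:23531234-23531483, minus strand) held a word 42 bases before it. Both stretches are printed 5′ to 3′ as transcribed, with the words in capitals; a word in the opposite orientation appears as its reverse complement.
E2F1: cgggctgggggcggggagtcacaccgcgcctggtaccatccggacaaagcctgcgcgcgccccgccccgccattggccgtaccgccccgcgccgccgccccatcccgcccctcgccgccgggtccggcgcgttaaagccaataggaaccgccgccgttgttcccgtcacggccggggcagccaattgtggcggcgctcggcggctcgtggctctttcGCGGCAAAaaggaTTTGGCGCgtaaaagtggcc
E2F2: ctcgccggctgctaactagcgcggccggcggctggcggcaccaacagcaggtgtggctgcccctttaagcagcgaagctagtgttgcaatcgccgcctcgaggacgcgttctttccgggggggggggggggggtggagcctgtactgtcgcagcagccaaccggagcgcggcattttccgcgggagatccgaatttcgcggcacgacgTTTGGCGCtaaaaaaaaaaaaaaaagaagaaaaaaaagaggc

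Windows of 30 bases around 1 word, again with the word in capitals, are given for 8 members that took different courses below; where a window crosses the start, it reaches into the first exon. CDC6 (chr17:40287875-40287904, plus strand, word 8 bases after the start), CDT1 (chr16:88803743-88803772, plus strand, 35 before) and DTL (chr1:212035729-212035758, plus strand, 8 before) were all higher in excess than in complete medium. MCM7 (chr7:100101388-100101417, minus strand, 9 before), GINS2 (chr16:85688967-85688996, minus strand, 31 before), POLE2 (chr14:49688201-49688230, minus strand, 5 before) and LIG1 (chr19:48170440-48170469, minus strand, 114 before) were lower, and PCNA (chr20:5126663-5126692, minus strand, 59 before) was not called.
CDC6: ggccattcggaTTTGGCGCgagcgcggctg
CDT1: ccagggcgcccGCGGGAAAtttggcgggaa
DTL: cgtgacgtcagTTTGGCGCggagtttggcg
MCM7: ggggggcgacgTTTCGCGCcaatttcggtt
GINS2: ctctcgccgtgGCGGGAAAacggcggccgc
POLE2: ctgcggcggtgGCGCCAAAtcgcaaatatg
LIG1: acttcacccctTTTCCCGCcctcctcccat
PCNA: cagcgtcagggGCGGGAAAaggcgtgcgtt

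Members with and without a word both rose and fell, and the difference between them was not tested. In excess against complete medium, 7 of the 22 members with a word rose and 6 fell (median log2 fold change -0.04), and of the 15 without, 5 rose and 5 fell (median 0.07), beside 30.1% higher and 37.6% lower among the genes with a mean of 500 or more. In cysteine-free against complete medium 4 with a word rose and 1 fell (median 0.13), and 3 without rose and 1 fell (median 0.04), beside 11.5% and 17.1%. Between excess and cysteine-free medium 4 with a word were higher and 9 lower (median -0.05), and 6 without were higher and 4 lower (median -0.01), beside 32.8% and 35.2%. The CCAAT motif stood in the promoters of 62.2% of the members, 53.5% of the other pathway genes, 82.6% of the G2 and mitosis genes and 39.7% of all genes. TTTGAA, the core of the cell cycle homology element of late cell cycle genes, was found in 1 of the 37 members, against 69.6% of the 23 G2 and mitosis genes and 18.2% of all genes. A match describes the letters only and is no evidence of binding, and the absence of one says only that these letters are not in the window.

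**Figure D3:**
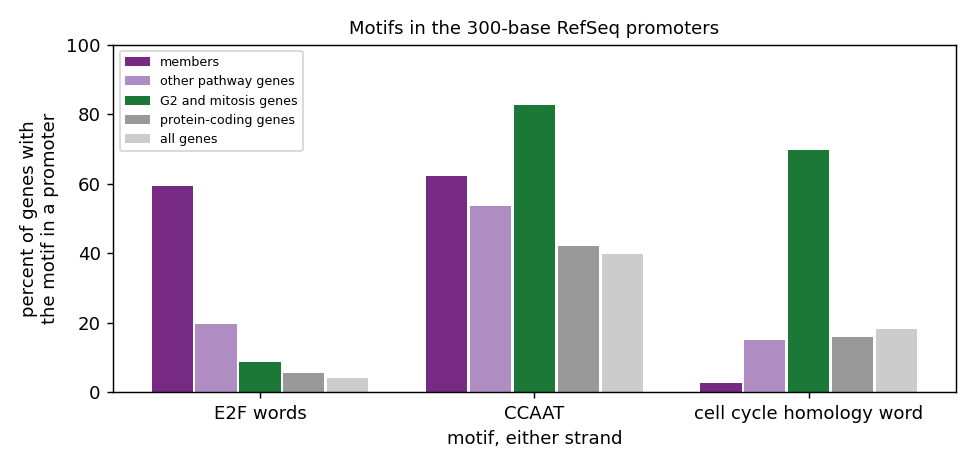
Percent of genes with at least 1 match, on either strand, in a 300-base RefSeq promoter, for the members (n = 37), other pathway genes (86), G2 and mitosis genes (23), protein-coding genes (15843) and all genes (27305). E2F words reach 59.5% of the members and the cell cycle homology word 69.6% of the G2 and mitosis genes.

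Origin licensing split in excess medium, with the loaders CDC6 and CDT1 higher and the MCM ring lower or not called. CDC6 had 4934 and 5249 normalized counts in cysteine-free medium, 5169, 4954, 4962 and 4761 in complete medium, and 7247, 7610, 7459 and 7606 in excess medium. All 4 excess libraries lay above the other 6, which overlapped each other. The log2 fold change of CDC6 was 0.59 in excess against complete medium (SE 0.039, limma adjusted p = 1.09e-09), a level of 1.51-fold, and 0.04 in cysteine-free medium (95% interval -0.08 to 0.16).

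CDT1, which brings the MCM ring to the origin and is destroyed once S phase begins, was ordered by medium. Its normalized counts were 6260 and 5868 in cysteine-free medium, 4968, 4399, 4902 and 5065 in complete medium, and 8091, 8228, 8505 and 8942 in excess medium. The 3 groups did not overlap, with complete medium lowest and excess medium highest. In excess against complete medium the log2 fold change was 0.81 (SE 0.048, limma adjusted p = 3.42e-10) and in cysteine-free against complete medium 0.33 (SE 0.064, limma adjusted p = 1.91e-03). The latter call was lost with a cysteine-free library left out, at 0.28 or 0.38 (limma adjusted p = 0.059 and 0.022).

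The 6 subunits of the ring, MCM2 to MCM7, spread over log2 fold changes of -0.34 to -0.02 in excess against complete medium. MCM7, the most abundant of them, had 20354 and 20655 normalized counts in cysteine-free medium, 19642, 18067, 19859 and 17756 in complete medium, and 14799, 15432, 15026 and 15907 in excess medium. Each excess library of MCM7 lay below all 6 others, and both cysteine-free libraries lay above all complete ones. MCM7 fell by 0.30 on the log2 scale in excess against complete medium (SE 0.041, limma adjusted p = 9.44e-06), and MCM4 fell by 0.34. MCM2, MCM3, MCM5 and MCM6 were not called there, at log2 fold changes of -0.06, -0.10, -0.02 and -0.12.

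MCM2 had 12559 and 12600 normalized counts in cysteine-free medium, 12087, 11195, 11934 and 11324 in complete medium, and 10735, 11041, 11173 and 11568 in excess medium. Complete and excess libraries of MCM2 overlapped, and both cysteine-free libraries stood above all others. Its log2 fold change of -0.06 against complete medium turned to 0.04 with equal totals and 0.03 with quantile normalization. MCM2 shares 23.6% of its exon bases with an unnamed lncRNA on the other strand.

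Set directly against cysteine-free medium, all 6 ring subunits fell in excess medium, by 0.18 (MCM2), 0.33 (MCM3), 0.33 (MCM4), 0.38 (MCM5), 0.18 (MCM6) and 0.42 (MCM7) on the log2 scale, where 35.2% of the genes with a mean of 500 or more and 23.6% of all genes kept were lower. The limma adjusted p ranged from 2.78e-10 for MCM7 to 2.45e-04 for MCM6, the calls of MCM2 and MCM6 were lost with equal totals, and that of MCM6 also without cysteine-free replicate 2. In cysteine-free against complete medium MCM5 alone of the ring rose, at 0.36 (SE 0.059, limma adjusted p = 6.06e-04), and MCM3 just missed the threshold at 0.24 (limma adjusted p = 0.0111). The call of MCM5 was lost with a cysteine-free library left out, at 0.36 or 0.35 (limma adjusted p = 0.0197 and 0.0233).

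ORC1, the largest subunit of the origin recognition complex, fell by 0.27 in excess against complete medium, whereas ORC6, its smallest subunit, rose by 0.26 on the same log2 scale. ORC1 ranged from 1531 to 1795 normalized counts in excess medium and from 1835 to 2049 in complete medium. ORC6 ranged from 2828 to 3102 and from 2357 to 2619. Excess and complete libraries did not overlap for either gene, and the 2 subunits moved in opposite directions. The call of ORC1 was lost with equal totals. In cysteine-free against complete medium neither was called (0.10 and 0.04).

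Among the genes that activate the helicase, CDC45 rose in both altered media, whereas GINS1, and in excess medium also GINS2 and GINS4, fell. CDC45 ranged from 4378 to 4744 normalized counts in cysteine-free medium, from 3507 to 3879 in complete medium and from 4751 to 5163 in excess medium. Its log2 fold changes were 0.32 and 0.43 against complete medium (limma adjusted p = 1.69e-03 and 2.7e-07), and the former call was lost with a cysteine-free library left out, at 0.38 or 0.26 (limma adjusted p = 0.0143 and 0.0617). CDC45 and the 4 GINS proteins are subunits of 1 complex, and their transcripts did not move together.

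GINS4 had 2379 and 2316 normalized counts in cysteine-free medium, 2912, 2665, 2680 and 2693 in complete medium, and 1566, 1597, 1674 and 1530 in excess medium. The groups did not overlap and excess medium was lowest. The fall in excess against complete medium was 0.78 on the log2 scale (SE 0.049, limma adjusted p = 6.44e-10), to 58.2% of the complete level. In cysteine-free medium the log2 fold change of GINS4 was -0.22, short of the threshold (limma adjusted p = 0.0171). GINS4 shares 21.0% of its exon bases with an unnamed lncRNA on the other strand, whose mean was 748 normalized counts in complete and 442 in excess medium.

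GINS2 had 3212 and 3379 normalized counts in cysteine-free medium, 3081, 2899, 2931 and 2687 in complete medium, and 2145, 2150, 2293 and 2320 in excess medium. Excess libraries of GINS2 were again the lowest 4. It fell by 0.38 against complete medium (SE 0.051) and by 0.57 against cysteine-free medium (SE 0.050, limma adjusted p = 5.33e-10).

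GINS1 took another course. It had 1931 and 1997 normalized counts in cysteine-free medium, 2563, 2441, 2645 and 2166.1 in complete medium, and 1891, 1933, 2004 and 1983 in excess medium. Cysteine-free and excess libraries overlapped, and all 6 lay below the complete ones. GINS1 fell by 0.32 in cysteine-free medium (SE 0.078, limma adjusted p = 8.18e-03) and by 0.33 in excess medium (SE 0.058, limma adjusted p = 1.28e-04). The call in cysteine-free medium was lost without any 1 of 4 libraries (either cysteine-free library, complete replicate 1 or complete replicate 2) and with equal nuclear totals. Without a cysteine-free library the log2 fold change was -0.29 or -0.34 (limma adjusted p = 0.105 and 0.0682).

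GINS3, with log2 fold changes of 0.15 and -0.02 against complete medium, and MCM10, with -0.06 and 0.09, were not called in either medium. MCM10, which helps the assembled helicase start, rose by 0.15 in excess against cysteine-free medium (limma adjusted p = 4.89e-03), a call lost with no filter on low values, with all groups fitted together, with the replicate block and without any 1 of 4 libraries (cysteine-free replicate 1 and excess replicates 2, 3 and 4).

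**Figure D4:**
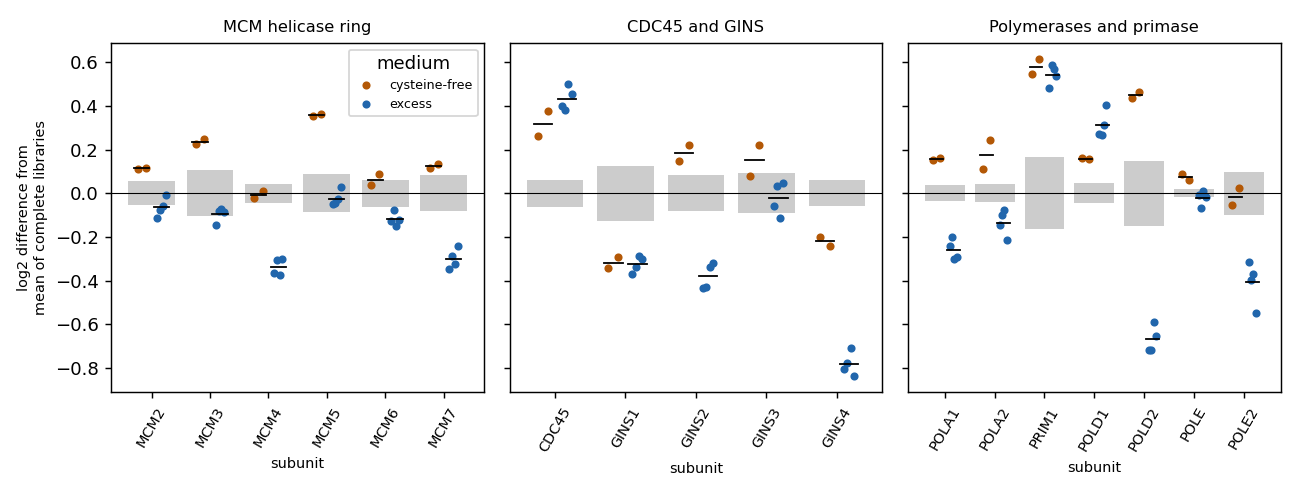
Log2 difference of each cysteine-free or excess library from the mean of the 4 complete libraries, for subunits of the MCM ring, CDC45 with GINS, and the polymerases with primase; short lines are group means and the gray boxes span ±1 SD of the complete libraries. Subunits of 1 complex differ, with CDC45 above and GINS4 below the box, and POLD2 above it in cysteine-free medium and below it in excess medium.

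Of the sliding clamp and the 4 loader subunits on the list, RFC2 to RFC5, RFC4 rose and RFC2 fell in excess medium and the other members of the group were not called. PCNA, the clamp that tethers the polymerases, had 10226 and 10273 normalized counts in cysteine-free medium, 10458, 9473, 10227 and 9377 in complete medium, and 10729, 10591, 10494 and 10981 in excess medium. The excess libraries lay just above the rest. PCNA was not called, with log2 fold changes of 0.05 (95% interval -0.07 to 0.17) in cysteine-free medium and 0.12 (0.03 to 0.20) in excess medium.

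RFC4, a small subunit of the loader, had 3180 and 3405 normalized counts in cysteine-free medium, 3419, 3180, 3259 and 3524 in complete medium, and 4529, 4621, 4406 and 4465 in excess medium. The excess libraries formed a group of their own above the other 6. RFC4 rose by 0.43 against complete medium (SE 0.043, limma adjusted p = 2.19e-07). RFC2 fell by 0.18 on the log2 scale, a call lost with equal totals, and RFC3 and RFC5 were not called, at -0.03 and -0.00. For RFC5 the 95% interval of the log2 fold change was -0.09 to 0.08 in excess medium and -0.11 to 0.13 in cysteine-free medium. In cysteine-free medium the log2 fold changes of the 5 genes lay between -0.14 and 0.15 (limma adjusted p from 0.0688 to 0.944). RFC1, the large subunit and not a member, rose by 0.26 in cysteine-free medium (limma adjusted p = 8.52e-03), a call lost with either cysteine-free library left out, and by 0.33 in excess medium (limma adjusted p = 1.77e-05).

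Among the polymerases, POLD2 showed the largest difference of any member between excess and cysteine-free medium. POLD2, the accessory subunit that holds polymerase delta together, had 6319 and 6442 normalized counts in cysteine-free medium, 4818, 4402, 5332 and 4236 in complete medium, and 2846, 2847, 3113 and 2976 in excess medium. The groups were fully apart, in the order cysteine-free, complete, excess. POLD2 rose by 0.45 in cysteine-free medium (SE 0.078, limma adjusted p = 9.2e-04) and fell by 0.67 in excess medium (SE 0.061, limma adjusted p = 7.25e-08), each against complete medium. Between excess and cysteine-free medium it fell by 1.12 (SE 0.046, limma adjusted p = 2.93e-16), to 46.1% of the cysteine-free level. The rise was not called with a cysteine-free library left out, at 0.46 or 0.43 (limma adjusted p = 0.0239 and 0.0319).

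POLD1, the catalytic subunit of the same polymerase, did not follow POLD2. Its mean normalized count was 5145 ± 165 (SD, n = 4) in complete, 5741 ± 9.1 (SD, n = 2) in cysteine-free and 6390 ± 285 (SD, n = 4) in excess medium, and it rose by 0.31 in excess against complete medium (limma adjusted p = 6.87e-06). POLD1 shares 8.63% of its exon bases with an unnamed protein-coding gene of the same strand. Apart from POLD1 and PRIM1, the genes of this group fell in excess medium or were not called. POLA1 and POLA2, of the polymerase that begins each new strand, had log2 fold changes of -0.26 (called) and -0.13 (not called, limma adjusted p = 0.0154) there. POLA2 shares 16.8% of its exon bases with an unnamed protein-coding gene of the same strand.

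PRIM1, the primase subunit that makes the RNA primer, had 2521 and 2640 normalized counts in cysteine-free medium, 1794, 1641, 1980 and 1521 in complete medium, and 2407, 2593, 2560 and 2502 in excess medium. Both altered media overlapped and lay above all complete libraries. PRIM1 rose by 0.58 (SE 0.090, limma adjusted p = 4.1e-04) in cysteine-free and by 0.54 (SE 0.067, limma adjusted p = 2.42e-06) in excess medium. The former call was lost with a cysteine-free library left out, at 0.61 or 0.55 (limma adjusted p = 0.0127 and 0.0221). The gene shares 10.9% of its exon bases with an unnamed protein-coding gene of the same strand, whose mean was 7329, 6869 and 8232 normalized counts in cysteine-free, complete and excess medium. It also shares 4.20% with NACA on the same strand, with means of 22967, 23745 and 27614, and 3.99% with HSD17B6 on the other strand, with means of 559, 430 and 589 in the same order.

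POLE2, the accessory subunit of polymerase epsilon, had 897 and 946 normalized counts in cysteine-free medium, 1009, 896, 957 and 868 in complete medium, and 749, 706, 720 and 636 in excess medium. Only the excess libraries stood apart, below the rest. POLE2 fell by 0.41 against complete medium (SE 0.069, limma adjusted p = 8.02e-05). POLE, the catalytic subunit, was not called, at -0.02 (95% interval -0.09 to 0.05).

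The 2 genes that finish the lagging strand moved in opposite directions in cysteine-free medium. LIG1, which seals Okazaki fragments, had 5698 and 5638 normalized counts in cysteine-free medium, 3572, 3827, 3832 and 3659 in complete medium, and 3502, 3257, 3422 and 3256 in excess medium. Both cysteine-free libraries lay far above the others. LIG1 rose by 0.61 (SE 0.055, limma adjusted p = 5.83e-06), or 1.52-fold, in cysteine-free medium. In excess against complete medium it fell by 0.15 (limma adjusted p = 8.15e-03), a call lost with equal totals, equal nuclear totals, quantile normalization, the replicate block or no filter on low values, and without any 1 of 5 libraries, complete replicates 2 and 3 and excess replicates 2, 3 and 4.

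FEN1, the nuclease that trims the flap before ligation, had 4022 and 4178 normalized counts in cysteine-free medium, 5544, 4957, 5368 and 5238 in complete medium, and 5352, 5476, 5716 and 5621 in excess medium. Here the cysteine-free libraries were the lowest, and complete and excess libraries overlapped. FEN1 fell by 0.36 in cysteine-free medium (SE 0.058, limma adjusted p = 4.96e-04), a call lost with a cysteine-free library left out, at -0.34 or -0.39 (limma adjusted p = 0.0224 and 0.0128). It shares 2.23% of its exon bases with FADS2 on the same strand.

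The 4 members of nucleotide supply had log2 fold changes between -0.18 and 0.24 against complete medium. RRM2, the regulatory subunit of ribonucleotide reductase, had 7306 and 7468 normalized counts in cysteine-free medium, 7933, 7781, 7603 and 7252 in complete medium, and 6960, 7007, 7066 and 6948 in excess medium. The excess libraries were lowest and the others overlapped. RRM2 fell by 0.13 in excess medium (SE 0.038, limma adjusted p = 8.35e-03), a call lost with equal totals, equal nuclear totals, quantile normalization, the replicate block or no filter on low values, and without any 1 of 6 libraries, complete replicates 1 and 2 and the 4 excess ones. TYMS, which makes thymidylate, rose by 0.24 there (limma adjusted p = 1.03e-04) and shares 39.9% of its exon bases with ENOSF1 on the other strand. RRM1, the catalytic subunit of the reductase, and TK1, the salvage kinase for thymidine, were not called in either medium against complete medium, with log2 fold changes from -0.18 to 0.20. In cysteine-free medium the limma adjusted p of these 4 genes lay between 0.0176 and 0.536.

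The cyclins and E2F factors, the regulators of S phase entry, held the largest changes of the list against complete medium. All 5 were called in excess against complete medium, with 3 higher and 2 lower, where 30.1% of the genes with a mean of 500 or more rose and 37.6% fell. CCND1, the cyclin D1 gene (chr11:69641156-69654474, plus strand), had 642 and 506 normalized counts in cysteine-free medium, 1417, 1302, 1528 and 1323 in complete medium, and 623, 545, 546 and 632 in excess medium. Both altered media overlapped and lay below every complete library by more than the spread of any group. CCND1 fell by 1.28 in cysteine-free medium (SE 0.101, limma adjusted p = 1.83e-06), to 41.1%, and by 1.25 in excess medium (SE 0.071, limma adjusted p = 1.98e-10), to 42.1% of the complete level. The direct difference between excess and cysteine-free medium was 0.04 (95% interval -0.15 to 0.23). It is the only member past a 2-fold change in cysteine-free medium. LTO1, which shares 10.4% of the exon bases of CCND1, had means of 1048, 1422 and 1308 normalized counts in cysteine-free, complete and excess medium.

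The E cyclins, partners of CDK2 at S phase entry, went opposite ways in excess medium. CCNE1 had 945 and 936 normalized counts in cysteine-free medium, 1218, 1128, 976 and 1235 in complete medium, and 772, 706, 738 and 811 in excess medium. Its groups did not overlap, with complete medium highest and excess medium lowest. CCNE1 fell by 0.59 in excess medium (SE 0.075, limma adjusted p = 3.9e-06) and was not called in cysteine-free medium, at -0.27 (limma adjusted p = 0.0483).

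CCNE2 had 973 and 1117 normalized counts in cysteine-free medium, 1024, 1003, 1069 and 901 in complete medium, and 1597, 1594, 1530 and 1591 in excess medium. The excess libraries stood together above the other 6. CCNE2 rose by 0.66 in excess medium (SE 0.058, limma adjusted p = 4.38e-08), and its log2 fold change in cysteine-free medium was 0.06 (95% interval -0.13 to 0.26). It shares 37.0% of its exon bases with INTS8 on the other strand, whose mean was 3474 normalized counts in complete and 3129 in excess medium.

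E2F2 (chr1:23506438-23531233, minus strand) was the member that rose most in excess medium. It had 2185 and 2210 normalized counts in cysteine-free medium, 1466, 1437, 1563 and 1338 in complete medium, and 3426, 3584, 3665 and 3507 in excess medium. The groups were fully apart, in the order complete, cysteine-free, excess. E2F2 rose by 0.60 in cysteine-free medium (SE 0.073, limma adjusted p = 6.5e-05), or 1.52-fold, and by 1.29 in excess medium (SE 0.052, limma adjusted p = 2.53e-12), or 2.45-fold. No annotated gene shares its exon bases.

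E2F1 had 2834 and 3110 normalized counts in cysteine-free medium, 2941, 2804, 2715 and 3031 in complete medium, and 3823, 4132, 3962 and 4016 in excess medium. Excess libraries lay above the others, which overlapped. E2F1 rose by 0.47 in excess medium (SE 0.046, limma adjusted p = 1.48e-07), and its log2 fold change in cysteine-free medium was 0.05 (95% interval -0.09 to 0.19).

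**Figure D5:**
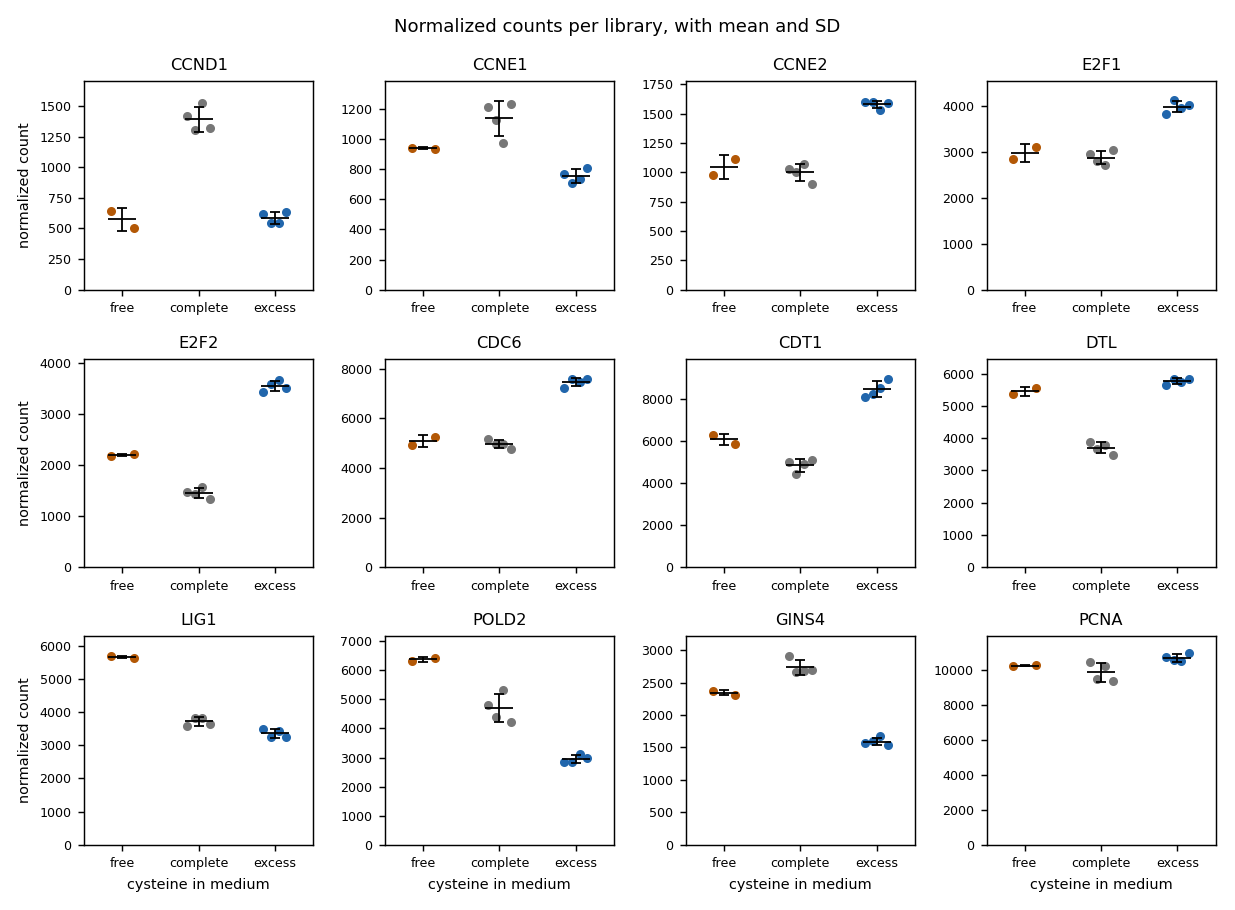
Normalized counts of 12 members in every library, with the mean and SD of the 2 cysteine-free, 4 complete and 4 excess libraries; each axis starts at 0. CCND1 is lower in both altered media, DTL higher in both, LIG1 higher in cysteine-free medium, and CDC6, CCNE2 and E2F1 higher in excess medium.

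DTL, the receptor through which a CUL4 ubiquitin ligase recognises CDT1 bound to PCNA, had 5360 and 5551 normalized counts in cysteine-free medium, 3892, 3654, 3797 and 3479 in complete medium, and 5639, 5850, 5748 and 5846 in excess medium. Complete libraries were the lowest 4, and the excess ones lay just above the cysteine-free ones. DTL rose by 0.56 in cysteine-free medium (SE 0.059, limma adjusted p = 2.28e-05) and by 0.64 in excess medium (SE 0.043, limma adjusted p = 1.37e-09), and the direct difference between both media, 0.08, was not called (limma adjusted p = 0.0839). DTL and its substrate CDT1 were both above complete medium in either altered medium, CDT1 by 1.26-fold and 1.75-fold and DTL by 1.47-fold and 1.56-fold.

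UHRF1, which reads hemimethylated DNA behind the fork, rose by 0.24 in excess medium (SE 0.052, limma adjusted p = 6.55e-04) and was not called in cysteine-free medium (0.15). CLSPN, the adaptor that passes the signal of a stalled fork to the checkpoint kinase CHEK1, was not called in any comparison, with log2 fold changes from -0.13 to 0.08.

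The pathway holds further genes, and 105 of them, listed by role from general knowledge, were all kept. Some of them averaged below 500 normalized counts, such as MCMDC2 and POLD4. In cysteine-free against complete medium 7.39% of all genes kept rose and 8.51% fell, and 11.5% and 17.1% of those with a mean of 500 or more. Of the 105, 17 rose there (16.2%) and 7 fell (6.67%), with a median log2 fold change of 0.00. These counts dropped to 3 and 1 without cysteine-free replicate 1 and to 2 and 1 without replicate 2. In excess medium 34 rose (32.4%) and 40 fell (38.1%), with a median of -0.07. The shares were 23.1% and 22.9% of all genes kept, and 30.1% and 37.6% of those with a mean of 500 or more. Between excess and cysteine-free medium 32 rose (30.5%) and 40 fell (38.1%). All genes kept gave 24.4% and 23.6% there, and those with a mean of 500 or more 32.8% and 35.2%. The balance reversed with equal totals. In excess against complete medium 40 then rose (38.1%) and 27 fell (25.7%), beside 28.9% and 17.9% of all genes kept. In excess against cysteine-free medium 41 rose (39.0%) and 28 fell (26.7%), beside 28.8% and 19.2%. The other scalings did not reverse the latter. Equal nuclear totals gave 32 higher and 40 lower there, and quantile normalization 33 and 41, beside 24.4% and 23.3%, and 25.1% and 22.4%. In excess against complete medium they gave 38 and 36, and 39 and 32, beside 25.1% and 21.0%, and 23.3% and 22.9%. The E2F and RB family beyond the members held 12 genes, of which 5 rose in cysteine-free medium, where the lowest log2 fold change was -0.19 and not called, and 8 rose and 4 fell in excess medium. Of the genes with a mean of 500 or more, 11.5% rose in cysteine-free medium, and 30.1% rose and 37.6% fell in excess medium. Of those the naming rule picked, E2F8 and RBL1 rose in cysteine-free medium, by 0.66 and 0.60. The call of RBL1 was lost with either cysteine-free library left out and that of E2F8 without replicate 2. E2F7, a repressor of E2F targets, rose by 1.26 in excess medium (SE 0.052).

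CDKN1A, the inhibitor p21 that restrains the kinases of S phase entry and binds PCNA, had the largest change among these genes. It had 1652 and 1576 normalized counts in cysteine-free medium, 2327, 2021, 1886 and 2561 in complete medium, and 8373, 8283, 8645 and 8660 in excess medium. No groups overlapped, and the excess libraries stood far above the rest. CDKN1A rose by 1.96 in excess against complete medium (SE 0.071, limma adjusted p = 7.94e-13) and fell by 0.44 in cysteine-free medium (limma adjusted p = 5.8e-03), the latter a call lost with either cysteine-free library left out. RRM2B, the p53-regulated subunit of ribonucleotide reductase, rose by 1.03 in excess medium, in contrast to its relative RRM2 above.

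Of the falls named by the rule, NME1, a nucleoside diphosphate kinase, dropped by 0.46 in cysteine-free and by 1.09 in excess medium, each against complete medium. GMNN, the geminin that blocks CDT1, fell by 0.38 and 0.39 on the log2 scale, whereas CDT1 rose in both media; in cysteine-free medium both calls were lost with either cysteine-free library left out. CHTF18 of an alternative clamp loader and the histone chaperone NASP fell by 0.76 and 0.75 in excess medium. RNASEH2A, which removes ribonucleotides, rose by 0.55 in cysteine-free medium and fell by 0.88 between excess and cysteine-free medium, where POLD4, the smallest subunit of polymerase delta, fell by 0.84 and CDKN2D rose by 1.04.

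A list of 30 G2 and mitosis genes was set beside the members because it marks the later part of the cycle. Of these, 9 of 30 fell and 1 rose (3.33%) in cysteine-free medium (median log2 fold change -0.17), beside 17.1% and 11.5% of the genes with a mean of 500 or more. With either cysteine-free library left out, 3 fell and 0 rose. In excess medium 21 fell (70.0%) and 1 rose (3.33%), with a median of -0.50, beside 37.6% and 30.1%. The corresponding counts of the members were 3 and 8 in cysteine-free medium and 14 and 13 in excess medium. With equal totals, 21 of the 30 fell (70.0%) and 5 rose (16.7%) in excess against complete medium, with a median of -0.40. Of the members 10 fell and 18 rose there, beside 17.9% and 28.9% of all genes kept. The difference between both lists was not tested.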

How the data were processed

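Poly(A)-selected RNA of 10 HEK293T libraries was sequenced, and groups were taken from the sample titles, which name biological replicates. The authors deposited 1 table of signal values, the read count per Ensembl gene divided by the DESeq2 size factor of its library, called normalized counts here. The submitters' processing notes name STAR 2.7.10b on GRCh38, HTSeq, DESeq2 1.42.0 and R 4.3.3, whereas the paper's methods name featureCounts and state that reads over several genes were discarded. The Ensembl release and the strand setting are not given in the sources used here, so reads of overlapping genes may not be separated. Read numbers were recovered from the smallest step of each library (100% of values came out within 1e-06 of a whole read), which gave the depth. No column was left out. Genes with 10 or more in at least 3 libraries were kept. Values were set to log2 after a pseudocount of 1 was added, limma 3.58.1 (with trend, R 4.3.3) was run on the 2 groups of each comparison, and 2-sided p-values adjusted by Benjamini-Hochberg across every gene kept were read at 0.01. Fold changes are on that log2 scale. The fit was tested on simulated data. The members and lists were chosen with earlier results of these data known. Values in every library are given for the 5 members with the largest rise and the 5 with the largest fall. These were picked among the members called with groups that do not overlap. Values are also given for well-known members of some roles (PCNA, MCM2, CDC6, CDT1, RRM2, CCNE1, CCNE2, CCND1, E2F1). Of other pathway genes, the 3 largest rises and falls with a mean of 100 or more and groups that do not overlap are named. Alternatives were other scalings, pseudocounts, filters and thresholds, a fit of all groups, a block for replicate number, counts tested by DESeq2 1.42.0 and by edgeR 4.0.16, members without shared exon bases, and each library left out. The genes with a mean of 500 or more, and the libraries of the blocked fit without the block, were added after the data were seen. Libraries of 1 group differed beyond counting noise (chi-square per degree of freedom 3.53 to 14.7). Precision is limited by the number of libraries.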

Additional observations from a re-analysis of the deposited data

Results flagged for a closer look

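Across the members, 84 groups of 4 libraries were examined for a library far from the other 3 by the ratio of its gap to the whole range of the group. Chance gives such a library in about 1 in 20 groups, so about 4 in 84, and 4 were found. In excess medium, ORC1 was highest in replicate 4, at 1795 normalized counts against 1531 to 1575 in the others (ratio 0.832). MCM10 was lowest in replicate 1 of excess medium, at 5092 against 5318 to 5363 (ratio 0.835). In complete medium, GINS4 was highest in replicate 1, at 2912 against 2665 to 2693 (ratio 0.886). CCNE2 was lowest in replicate 3 of excess medium, at 1530 against 1591 to 1597 (ratio 0.911). The 4 cases fell in 3 different libraries of excess medium and 1 of complete medium.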

How the results depend on the processing

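The comparison of cysteine-free with complete medium is limited by its 2 cysteine-free libraries. There, the 8 members that rose became 16 with quantile normalization (38.1%, beside 7.58% of all genes kept). At an adjusted p of 0.05 they became 14 (33.3%, beside 13.1%). Of the 22 members without shared exon bases, 4 rose (18.2%, beside 7.39%) and 0 fell (beside 8.51%). The 3 that fell became 5 with all groups fitted together (11.9%, beside 11.8%) and 6 at 0.05 (14.3%, beside 14.4%). With each library left out in turn, the counts ran from 3 to 10 higher and from 1 to 6 lower, and the median from 0.0669 to 0.120; leaving out either cysteine-free library gave 3 and 1 (beside 1.39% to 1.86% and 1.97% to 2.26% of all genes kept), and leaving out complete replicate 3 gave 6 lower. A 2-fold change left 0 higher and 1 lower there, beside 1.44% and 0.66% of all genes kept. It left 1 and 1 in excess against complete medium, beside 6.39% and 3.74%. In excess against cysteine-free medium it left 0 and 1, beside 7.01% and 5.42%. Of the 22 members without shared exon bases, 6 rose (27.3%) and 8 fell (36.4%) in excess against complete medium, beside 23.1% and 22.9%. In excess against cysteine-free medium 6 were higher (27.3%) and 10 lower (45.5%) with a median of -0.105, beside 24.4% and 23.6%. Leaving out each library gave 13 to 14 higher, 12 to 15 lower and medians of -0.0332 to -0.0161 in excess against complete medium. All genes kept gave 20.2% to 24.1% and 20.8% to 23.1% there. In excess against cysteine-free medium leaving out each library gave medians of -0.0552 to -0.0190. Leaving out an excess library gave 9 to 11 higher and 16 lower there, beside 22.8% to 23.0% and 22.5% to 22.9%. Equal totals moved the median of all genes from 0.01 to 0.12 in excess against complete medium and the share of calls that were higher from 50.3% to 61.8%. The median of the members moved from -0.02 to 0.0819 with them, to 0.0143 with equal nuclear totals and to 0.0286 with quantile normalization. In excess against cysteine-free medium equal totals gave 18 higher and a median of 0.0583. The replicate number did not pair the libraries (correlations of deviations from -0.116 to 0.103); as a block it gave 5 lower in cysteine-free against complete medium, 7 in the same libraries without the block, and a median of -0.0422 in excess against cysteine-free medium with or without the block. Signs were examined only for the members whose values in every library are given above, and other members may have changed sign too. Among those examined, values not called that changed sign in cysteine-free against complete medium were POLE2 with equal totals (0.00875) and equal nuclear totals (0.0198). The others there were RFC4 with equal totals (0.00133), equal nuclear totals (0.0124) and quantile normalization (0.0359), and RRM2 with quantile normalization (0.00312). With a library left out, the log2 fold change there ran from -0.0361 to 0.163 for CCNE2, from -0.00746 to 0.0818 for CDC6, from -0.0184 to 0.116 for E2F1, from -0.0528 to 0.0236 for POLE2 and from -0.0720 to 0.0266 for RFC4. In excess against complete medium MCM2 became 0.0415 with equal totals and 0.0264 with quantile normalization. In excess against cysteine-free medium GINS1 became 0.0731 with equal totals and 0.0171 with quantile normalization, PRIM1 0.0446 and RRM2 0.00265 with equal totals. Leaving out a library gave -0.134 to 0.209 for CCND1 and -0.0325 to 0.0162 for GINS1 there. The cause of these shifts was not tested. Among the members examined for sign, none that was called changed sign under any alternative run.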
